A study of Mus musculus with 12 samples.

Results

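The hair follicle keratins and keratin-associated proteins are the structural proteins of the hair and its sheaths. They were taken from the array by symbol: keratins of the inner root sheath, the hair shaft and the companion layer, every symbol that begins with Krtap, and the trichohyalin family. This gave 48 genes with 53 probes, out of 16593 named genes and 25697 probes on the array. Of these, 28 genes with 29 probes were detected on at least 6 of the 12 arrays, at a detection p under 0.05, and could be tested. The data came from oral tumours of FVB x C57BL/6 F1 mice that had grown for 21 days, 6 labelled KHR and 6 labelled KHR-NICD, with total RNA measured on 1 single-colour Illumina bead array per tumour. The labels do not spell out KHR and name no promoter, allele or cell of origin. NICD commonly stands for Notch intracellular domain, which is released when a Notch receptor is cleaved and then acts in the nucleus on target genes. Each tumour is called a biological replicate, but its animal is not given, so a p-value speaks only of the spread among these samples.

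A growing hair is made of concentric layers. Cortex and cuticle of the shaft are built from hair keratins, a type I chain paired with a type II chain, embedded in a matrix of small keratin-associated proteins rich in cysteine or in glycine and tyrosine. Around the shaft lies the inner root sheath, which has keratins of its own and holds the calcium-binding, cross-linked protein trichohyalin, and between it and the outer root sheath lies the companion layer. The lining of the mouth carries no hairs, although some shaft keratins are also made in the papillae of the tongue and in nails.

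Of the 43 members placed by the RefSeq promoter table, most lie in clusters: 11 of the keratin-associated proteins and 7 type I keratins on chromosome 11, 14 keratin-associated proteins on chromosome 16, 4 on chromosome 7, and 6 type II keratins on chromosome 15. Promoters from RefSeq on mouse build GRCm38.p6, from 250 bases before to 50 bases after the start, were found for 43 of the 48 members. Krt33a, Krt35, Krt86, Krt87 and Krtap12-1 had none in the table. The letters TATAAA, the core of a TATA box, stood on either strand in 34 of 43 member promoters, or 79.1%. They stood in 14.2% of all 27025 promoters of the table and in 8.53% of the 6857 promoters of genes tested here. On the gene's own strand and between 60 and 11 bases before the start, the letters were found in 27 of 43, or 62.8%, against 2.91% of all promoters. CTTTGA, the core of the site bound by LEF and TCF factors, was found on either strand in 12 of 43, or 27.9%. It stood in 16.2% of all promoters and in 12.2% of those of genes tested here. The motifs did not overlap in the sequences shown. A match of letters is a description of the window and not a bound site.

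Promoters are shown for an inner root sheath keratin, Krt71 on chr15:101743048-101743347 (minus strand), and its partner type Krt27 on chr11:99351069-99351368 (minus strand). A shaft keratin, Krt34 on chr11:100041505-100041804 (minus strand), and a matrix protein, Krtap13-1 on chr16:88728612-88728911 (plus strand), stand for the members that varied together. The last pair, Krt84 on chr15:101532771-101533070 (minus strand) and Tchhl1 on chr3:93468504-93468803 (plus strand), did not share the difference between tumours that most members showed, as described further on. Each runs 5′ to 3′ along the gene, and capitals mark TATAAA or CTTTGA on either strand.
Krt71: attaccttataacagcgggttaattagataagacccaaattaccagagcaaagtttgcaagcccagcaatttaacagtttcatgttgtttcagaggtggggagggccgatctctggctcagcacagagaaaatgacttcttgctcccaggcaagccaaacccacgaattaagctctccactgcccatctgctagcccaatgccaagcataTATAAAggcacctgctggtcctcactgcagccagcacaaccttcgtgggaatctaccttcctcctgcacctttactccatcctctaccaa
Krt27: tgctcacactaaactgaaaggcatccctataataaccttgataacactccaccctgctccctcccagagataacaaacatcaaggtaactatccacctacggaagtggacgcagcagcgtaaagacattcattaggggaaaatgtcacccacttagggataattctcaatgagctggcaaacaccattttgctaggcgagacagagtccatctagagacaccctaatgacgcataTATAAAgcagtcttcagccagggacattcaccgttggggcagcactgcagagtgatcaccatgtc
Krt34: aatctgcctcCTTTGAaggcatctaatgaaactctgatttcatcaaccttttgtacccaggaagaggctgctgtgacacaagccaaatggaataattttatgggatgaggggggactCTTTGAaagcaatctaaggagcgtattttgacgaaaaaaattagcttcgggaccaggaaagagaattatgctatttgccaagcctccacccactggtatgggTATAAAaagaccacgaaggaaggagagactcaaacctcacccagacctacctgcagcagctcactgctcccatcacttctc
Krtap13-1: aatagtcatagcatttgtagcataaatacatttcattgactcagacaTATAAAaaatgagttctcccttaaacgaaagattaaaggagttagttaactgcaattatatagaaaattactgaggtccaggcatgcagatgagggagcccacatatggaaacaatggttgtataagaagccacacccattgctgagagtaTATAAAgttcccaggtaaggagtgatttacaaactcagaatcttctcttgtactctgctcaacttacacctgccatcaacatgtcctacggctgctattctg
Krt84: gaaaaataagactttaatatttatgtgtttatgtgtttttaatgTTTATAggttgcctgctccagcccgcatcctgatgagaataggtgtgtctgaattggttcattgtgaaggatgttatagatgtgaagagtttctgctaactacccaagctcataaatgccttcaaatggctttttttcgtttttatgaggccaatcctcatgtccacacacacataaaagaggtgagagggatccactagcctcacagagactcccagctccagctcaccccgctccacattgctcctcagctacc
Tchhl1: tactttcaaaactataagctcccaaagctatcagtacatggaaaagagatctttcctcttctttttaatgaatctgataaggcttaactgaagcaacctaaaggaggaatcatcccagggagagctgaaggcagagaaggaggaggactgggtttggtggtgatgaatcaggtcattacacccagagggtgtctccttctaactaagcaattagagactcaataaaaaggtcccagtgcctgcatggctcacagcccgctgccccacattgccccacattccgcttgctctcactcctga
TATAAA began 40 bases before the start in Krt71, 15 in Krt27, 31 in Krt34 and 52 in Krtap13-1, which held another copy 203 bases before the start. In Krt84 the letters lay only on the opposite strand, with their first shown base 206 bases before the start, and Tchhl1 held neither motif.

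Arrays were similar in detection, signal and beads, with 43.6% to 48.1% of probes detected, median signals from 140 to 178 and 33 to 37.4 beads per probe on average. Limma's array weights were less even, from 0.42 for KHR 1 to 1.8 for KHR 6. Keratinocyte markers passed in 7 of 7 cases on the array, as did 7 of 7 oral mucosa markers. Melanocyte markers, which would accompany pigmented hair, were undetected on every array for 6 of 6, among them Tyr and Dct. Eif2s3y, a gene of the Y chromosome, was detected in 5 tumours, KHR 4, KHR 5, KHR 6, KHR-NICD 1 and KHR-NICD 4. Its log2 level was 8.18 or more there and 4.92 or less in the other 7. Xist, which coats the inactive X chromosome, ran the other way, at 5.11 or below in those 5 tumours and at 6.62 or above in the 7. The labels give no sex. Hair keratins were already known from an earlier account of these data to move with Eif2s3y, so that pattern is described gene by gene here and is no independent support.

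Hair follicle transcripts were present in every tumour, but in widely different numbers. Of the 48 genes, 35, 33, 30, 15, 25 and 16 were detected in KHR tumours 1 to 6, and 22, 30, 27, 11, 28 and 23 in KHR-NICD tumours 1 to 6. KHR 1 held the most and KHR-NICD 4 the fewest. On all 12 arrays 9 genes were detected, on none 12. In bulk tissue, fewer cells of a type and less RNA per cell cannot be told apart.

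**Figure D1:**
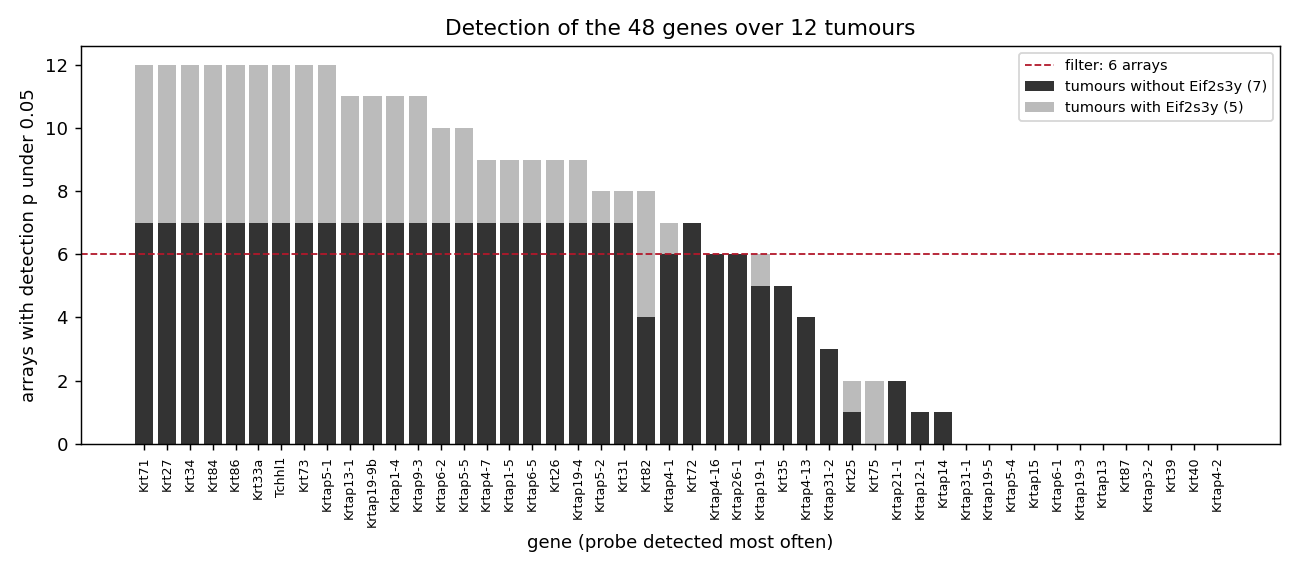
Number of arrays on which each member gene was detected (detection p under 0.05), with bars split into tumours without and with Eif2s3y. The genes run from 9 detected on all 12 arrays to 12 detected on none.

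Detection differed by family. Of 6 inner root sheath keratins on the array, 5 passed the filter (Krt71, Krt72 and Krt73 of type II, Krt26 and Krt27 of type I), 3 of them on all arrays, while Krt25 was detected on 2 arrays. Among 10 shaft keratins 6 passed, namely Krt31, Krt33a and Krt34 of type I and Krt82, Krt84 and Krt86 of type II. Krt35, an early keratin of the hair matrix and cuticle, was detected on 5 arrays, each without Eif2s3y, and Krt39, Krt40 and Krt87 on none. Krt75 of the companion layer was detected on at most 2 arrays by any of its 3 probes. Of 30 keratin-associated proteins 16 passed, 5 were detected on some arrays and 9 on none. Tchhl1, a relative of trichohyalin, was detected on all arrays. Krt28, Krt74, Krt85 and Tchh are among the genes of these families not analysed here. Members of a Krtap subfamily can be near-identical in sequence, so how far one probe reports one of them is uncertain.

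The members that passed varied far more between tumours than most genes. Their median SD over the 12 tumours was 1.10 on the log2 scale, against 0.23 over all 8420 genes tested, and 24 of the 28 lay in the top 5% of genes by SD. Outside that top 5% were Krt82, with an SD of 0.24, Krtap5-5 with 0.27, Krt84 with 0.40 and Krtap19-4 with 0.52. Krt84 had a mean of 8.17, but Krt82, Krtap5-5 and Krtap19-4 lay near background, with means of 5.43, 5.58 and 5.59. Their small spread is therefore no sign of steady expression. Among the 9 members detected on all 12 arrays, the highest tumour stood above the lowest by more than 4-fold for 8, and by 16.3-fold for Krt34 and 15.6-fold for Krt71. The others were not above background in at least 1 tumour, so no such fold is given. KHR 1 was the highest tumour for 25 of the 28 genes, KHR 2 for Krt82 and Krt86, and KHR 6 for Krt84. KHR-NICD 4 was the lowest tumour for 13.

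**Figure D2:**
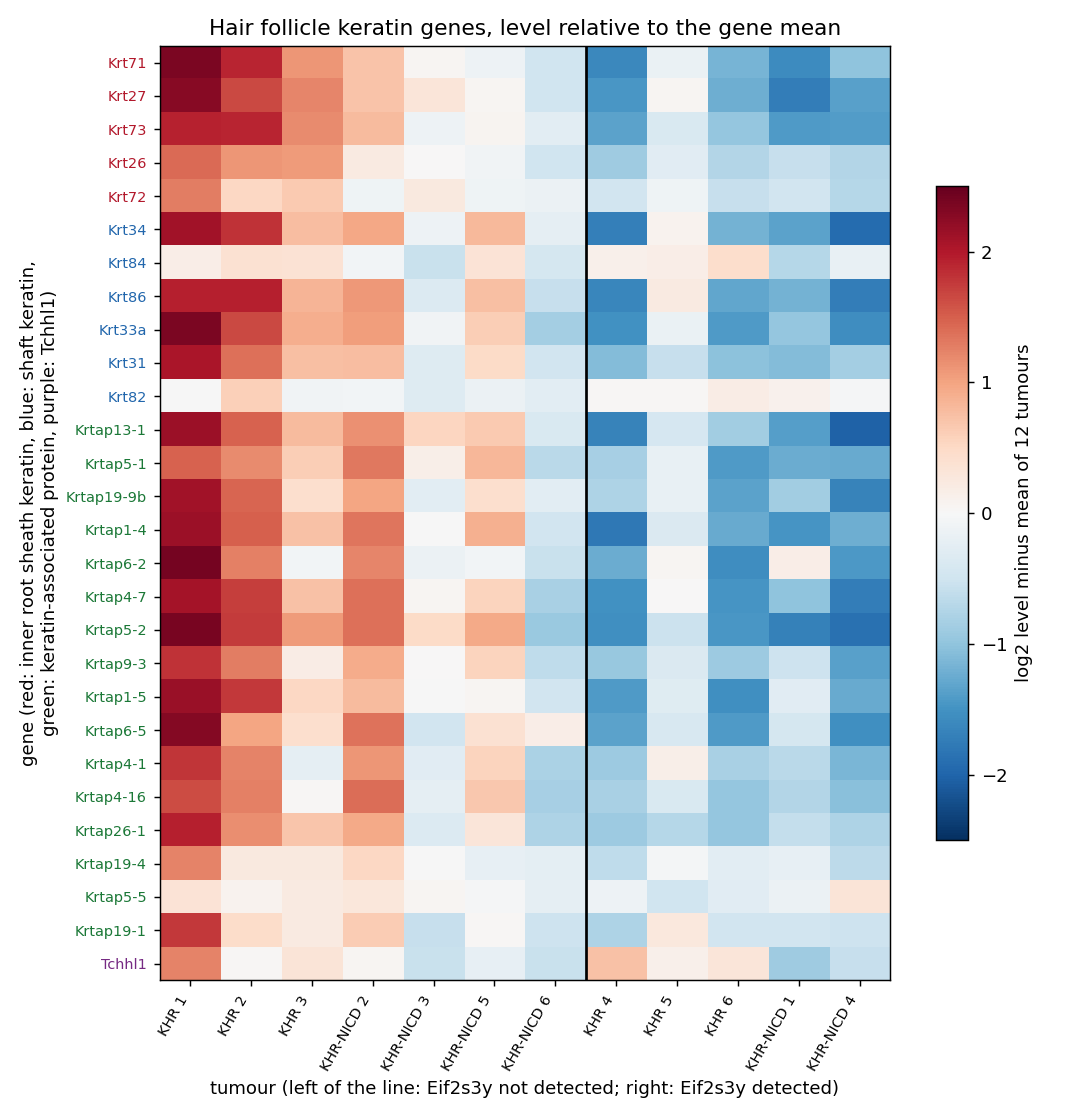
Log2 level of each member that passed the detection filter in each of the 12 tumours, set against that gene's mean over the tumours. Most genes run high in KHR 1 and KHR 2 and low in KHR 4, KHR 6 and KHR-NICD 4. Krt84, Krt82 and Krtap5-5 vary least, and of these Krt82 and Krtap5-5 lie near background.

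Inner root sheath keratins came first in the comparison of tumour types. Krt71, the type II keratin of all sheath layers, had log2 levels of 8.19 at the lowest, 10.27 at the median and 12.15 at the highest in KHR, and of 8.24, 9.49 and 10.52 in KHR-NICD. KHR 1 to 3 were the 3 highest tumours and KHR 4 and KHR-NICD 1 the lowest, so the groups overlapped. Its means were 10.20 ± 1.64 and 9.40 ± 0.81 (SD, n = 6 each), which differed by -0.81 (standard error 0.65), and limma's adjusted p was 0.616. Krt27, a type I partner of the sheath, ran from 8.06 through a median of 10.15 to 11.78 in KHR and from 7.80 through 9.29 to 10.22 in KHR-NICD. Its difference was -0.84, with a standard error of 0.65 and a limma adjusted p of 0.596. Krt73, a type II keratin of the sheath cuticle, ran from 6.60 through 8.34 to 9.86 in KHR and from 6.53 through 7.75 to 8.72 in KHR-NICD. The groups overlapped for Krt27 and Krt73 as well, and the difference of Krt73 was -0.78 with a standard error of 0.61. The dimmer Krt26 and Krt72 differed by -0.55 (standard error 0.40) and -0.43 (standard error 0.29), and neither passed the test.

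Shaft keratins showed a similar spread. Krt34, a type I keratin of the cortex, ran from 7.27 through a median of 9.40 to 11.08 in KHR and from 7.05 through 8.81 to 9.95 in KHR-NICD. Krt86, a type II cortex keratin, ran from 6.50 through 8.67 to 10.09 and from 6.40 through 7.67 to 9.22. For Krt33a, another type I keratin of the cortex, the values were 6.57, 8.47 and 10.45 in KHR and 6.55, 7.62 and 9.14 in KHR-NICD. In all 3 the types overlapped, and the lowest KHR tumour lay slightly above the lowest KHR-NICD tumour. Their differences were -0.62, -0.67 and -0.60, with standard errors of 0.69, 0.68 and 0.67 and limma adjusted p-values of 0.740, 0.701 and 0.740. The other probe of Krt86 gave -0.78. Krt31 differed by -0.50 and Krt82, a cuticle keratin, by -0.24 with a limma adjusted p of 0.382.

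Krt84 and Tchhl1 had a narrower spread. Krt84, a type II keratin known in human from the filiform papillae of the tongue as well as from hair, lay between 8.29 and 8.61 in KHR, with a median of 8.44, and between 7.45 and 8.52 in KHR-NICD, with a median of 7.87. KHR tumours were tightly grouped, and the KHR-NICD tumours reached from below them into their range. Its means were 8.44 ± 0.13 and 7.90 ± 0.38 (SD, n = 6 each), which differed by -0.54 (standard error 0.16), with an unadjusted p of 0.0039 and a limma adjusted p of 0.145. Tchhl1 lay between 7.97 and 9.19 in KHR, with a median of 8.26, and between 7.06 and 7.99 in KHR-NICD, with a median of 7.39. The ranges touched only where the highest KHR-NICD tumour, at 7.99, stood just above the lowest KHR tumour. Means of 8.41 ± 0.46 and 7.49 ± 0.33 (SD, n = 6 each) differed by -0.92 (standard error 0.21), with an unadjusted p of 0.00068 and a limma adjusted p of 0.0836, the smallest among the members.

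Keratin-associated proteins overlapped widely between the types. Krtap13-1, of the high-sulfur proteins, ran from 5.67 through a median of 7.53 to 9.49 in KHR and from 5.32 through 7.43 to 8.48 in KHR-NICD, and differed by -0.48 (standard error 0.69). Krtap5-1, of an ultrahigh-sulfur family of the cuticle, ran from 5.63 through 7.25 to 8.52 and from 5.79 through 6.78 to 8.36, a difference of -0.29. Krtap19-9b, of the glycine and tyrosine-rich proteins, ran from 5.65 through 7.10 to 9.10 and from 5.33 through 6.72 to 7.98, a difference of -0.56. Values of Krtap1-4, a high-sulfur protein, were 4.94, 6.92 and 8.87 in KHR and 5.26, 6.49 and 8.07 in KHR-NICD, a difference of -0.32. The types overlapped in all 4, with KHR 1 above every KHR-NICD tumour in each, and the limma adjusted p-values were 0.807, 0.868, 0.711 and 0.879.
The differences of the other keratin-associated proteins ran from -0.55 for Krtap5-2 and -0.52 for Krtap4-7 through -0.49 for Krtap19-1, -0.41 for Krtap4-1, -0.41 for Krtap26-1, -0.39 for Krtap1-5 and -0.35 for Krtap9-3. They ended with -0.27 for Krtap6-2, -0.26 for Krtap19-4, -0.25 for Krtap4-16, -0.19 for Krtap6-5 and 0.09 for Krtap5-5.

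Over the 28 genes, 0 passed limma's test at an adjusted p of 0.05, where 17 of 8420 genes did (0.202%). At an unadjusted p under 0.05 stood 2 of 28, Tchhl1 and Krt84, against 13.9% of all genes. Both were lower in KHR-NICD, as were 7.1% of all genes, and 0 members were higher, against 6.83%. The tumour types failed to overlap for 0 of the 28, against 1.57% of all genes. Differences were negative for 27 of 28, against 48.9% of all genes, with a median of -0.48 against 0.01. That median moved with single tumours and with their weights: it was -0.15 without KHR 1, -0.25 without KHR 2, -0.27 without KHR-NICD 4, and 0.10 with array weights, where 10 of 28 were negative. It was -0.25 without background correction and -0.28 over all 48 members with no filter, 40 of them negative. The median standard error of a member's difference was 0.57, against 0.13 over all genes. Most members rose and fell together across the tumours, so counts of members by sign or by test, here and below, are not separate observations.

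**Figure D3:**
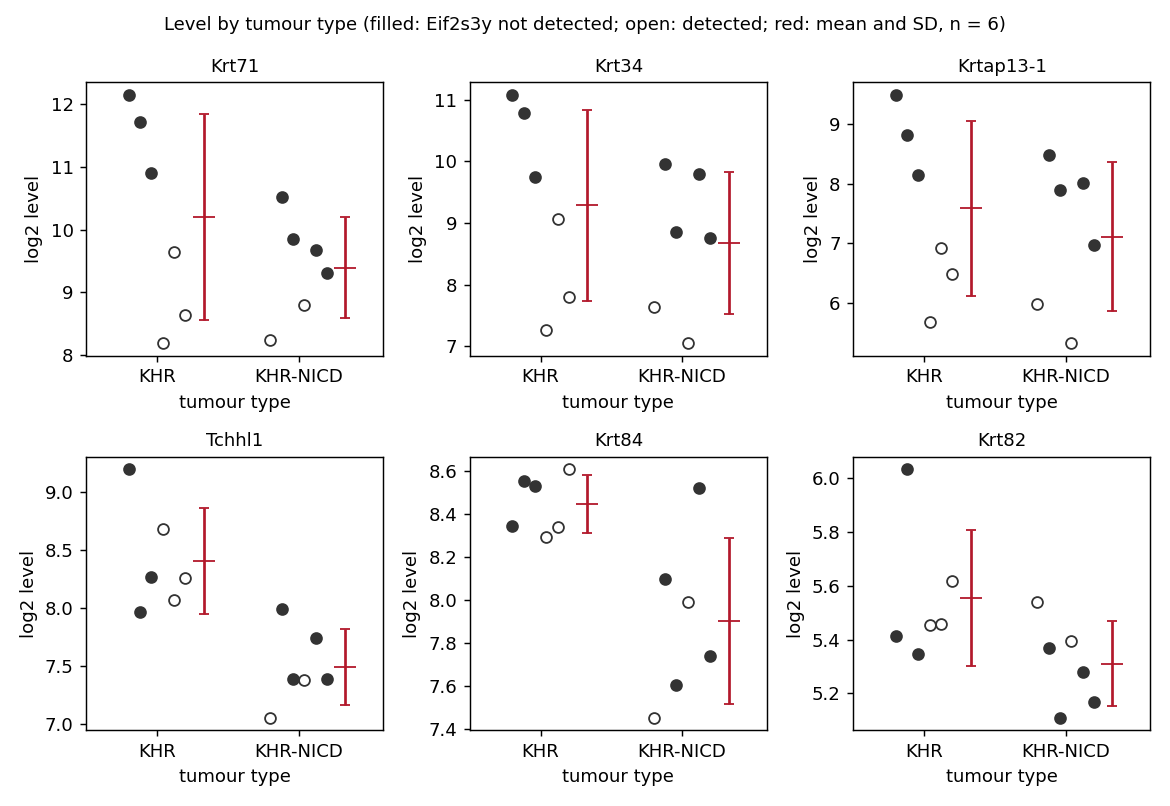
Log2 levels of Krt71, Krt34, Krtap13-1, Tchhl1, Krt84 and Krt82 in the 6 KHR and 6 KHR-NICD tumours, with filled points where Eif2s3y was not detected, open points where it was, and the mean and SD of each type in red. The types overlap for every gene shown, and within each type the open points lie below the filled ones for Krt71, Krt34 and Krtap13-1 but not for Krt84 or Krt82.

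Most hair follicle genes were lower on average in the tumours in which Eif2s3y was detected. The split was not clean: KHR-NICD 6, without Eif2s3y, had a lower member mean than KHR 5, with it (6.38 against 6.69). Within KHR, tumours 1 to 3 lacked Eif2s3y and tumours 4 to 6 had it, so there it cannot be told apart from the order of the labels. In KHR-NICD it was detected in tumours 1 and 4. With tumour type and Eif2s3y as 2 terms in limma, 22 of the 28 genes passed at an adjusted p of 0.05 for the Eif2s3y term and were lower with it, where 18.6% of all genes passed and 10.1% passed and were lower. This count is over members that passed a filter on 12 tumours of which 7 lacked Eif2s3y. Without a filter it was 21 of 48, against 4.82% of all genes called lower, and among genes detected on all 12 arrays 7 of 9, against 10%. The median difference was -1.74 over the 28 and 0.01 over all genes. The Eif2s3y sets did not overlap for 3 of 28 genes, Krt31, Krt73 and Krtap13-1, against 6.38% of all genes. Of these Krt31 was detected in 1 of the 5 tumours with Eif2s3y, so its separation sets signal against background.

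All 5 inner root sheath keratins that passed were called lower. Krt71 lay between 8.19 and 9.64 in the 5 tumours with Eif2s3y, with a median of 8.63, and between 9.31 and 12.15 in the 7 without, with a median of 10.52. The difference was -2.08 (standard error 0.35, limma adjusted p = 0.0025). Krt73 lay between 6.53 and 7.55 with Eif2s3y and between 7.68 and 9.86 without, a difference of -2.08 (standard error 0.26, limma adjusted p = 0.00072). KHR 5 was the highest of the 5 for both genes. Krt27 differed by -2.16 and Krt26 by -1.24. Krt26 was detected in 2 of the 5 tumours with Eif2s3y, so the size of its difference rests partly on background values. Krt72 was not detected in any of the 5 and was at least 1.40-fold lower. Such a bound sets the mean of the bright tumours against the higher, on each dim array, of the probe's own value and the lowest value among detected probes.

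Of the shaft keratins 4 of 6 were called lower. Krt34 differed by -2.26 (standard error 0.35, limma adjusted p = 0.0016), Krt86 by -2.11, Krt33a by -2.09 and Krt31 by -1.72. Krt31 was detected in 1 of the 5 tumours with Eif2s3y, so the size of its difference rests on background values. The shaft keratins not called were Krt84, at -0.16 (limma adjusted p = 0.509), and Krt82, at 0.06 (limma adjusted p = 0.755). Krt82 lay near background, with a mean of 5.43 over the 12 tumours. Tchhl1 differed by -0.27 (standard error 0.20, limma adjusted p = 0.387). Krt84 and Tchhl1 were the members with the smallest p for tumour type, and their levels with and without Eif2s3y overlapped widely, from 7.45 to 8.61 against 7.61 to 8.55 for Krt84.

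Keratin-associated proteins were called lower in 13 of 16. Krtap13-1 lay between 5.32 and 6.93 with Eif2s3y and between 6.97 and 9.49 without, a difference of -2.33 (standard error 0.30, limma adjusted p = 0.00093). Krtap5-2, at -2.59, had the largest fitted difference of the family, although it was detected in 1 of the 5 tumours with Eif2s3y. Krtap26-1 and Krtap4-16, detected in none of the 5, were at least 1.88-fold and 1.96-fold lower. Krtap6-2 (-1.48, limma adjusted p = 0.057), Krtap19-1 (-0.79, limma adjusted p = 0.0937) and Krtap5-5 (-0.25, limma adjusted p = 0.243) did not pass. Over the 7 called members detected on all 12 arrays, 6 keratins and Krtap5-1, the fold ran from 3.44 to 4.79.

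Markers of other tissues moved with the same term, and their part in the result was not tested. The skeletal muscle list, with 13 of 14 on-array markers passing, was lower for 12, and its mean log2 level ran from 6.79 to 8.27 with Eif2s3y and from 7.74 to 10.28 without. KHR 1 and KHR 2 were the highest tumours for both muscle and hair follicle means (10.28 and 8.61, 10.06 and 8.07), and KHR 4, KHR 6 and KHR-NICD 4 the lowest for both (6.79 and 5.86, 7.28 and 5.95, 7.27 and 5.75). The order differed in KHR-NICD 2, at 7.74 for muscle and 7.68 for hair, and in KHR-NICD 3, at 9.58 and 6.76. Interfollicular epidermis markers, with 5 of 6 passing, had mean levels of 9.88 to 10.35 with Eif2s3y and of 11.16 to 12.07 without. Krt2, a keratin of the upper epidermis, had a fitted difference of -4.47 and Flg2, a filaggrin relative, of -2.27, and each was detected in 1 of the 5 tumours with Eif2s3y. Krt1 of that list differed by -0.51 (limma adjusted p = 0.0263), while Krt10, at 0.06, and Lor, at 0.04, did not pass. Hair follicle stem cell markers, with 4 of 6 passing, ran from 7.11 to 7.44 and from 7.76 to 8.68, with Krt15 lower by 2.05, Sox9 by 1.05 and Nfatc1 by 0.88, while Cd34 differed by 0.25 (limma adjusted p = 0.0937). Sebaceous gland markers, with 5 of 9 passing, were lower for 3, Scd1, Elovl3 and Mgst1, and ran from 8.29 to 8.70 and from 8.76 to 9.75. Plin2 of that list differed by 0.48 (limma adjusted p = 0.126) and Cidea by -0.15. Keratinocyte markers ran from 10.17 to 10.32 and from 10.34 to 10.49. Of these Perp was higher by 0.63 (limma adjusted p = 0.0461), and Krt15, shared with the stem cell list, was lower by 2.05. The others did not pass, with Krt5 at 0.31, Itga6 at 0.15, Trp63 at 0.05, Krt14 at 0.004 and Cdh1 at -0.26. Fibroblast markers, with 6 of 6 passing, had means from 6.93 to 7.99 and from 7.23 to 8.07, but Dcn was lower by 1.08 (limma adjusted p = 0.00093) and Col1a1 higher by 0.85 (limma adjusted p = 0.0274).

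**Figure D4:**
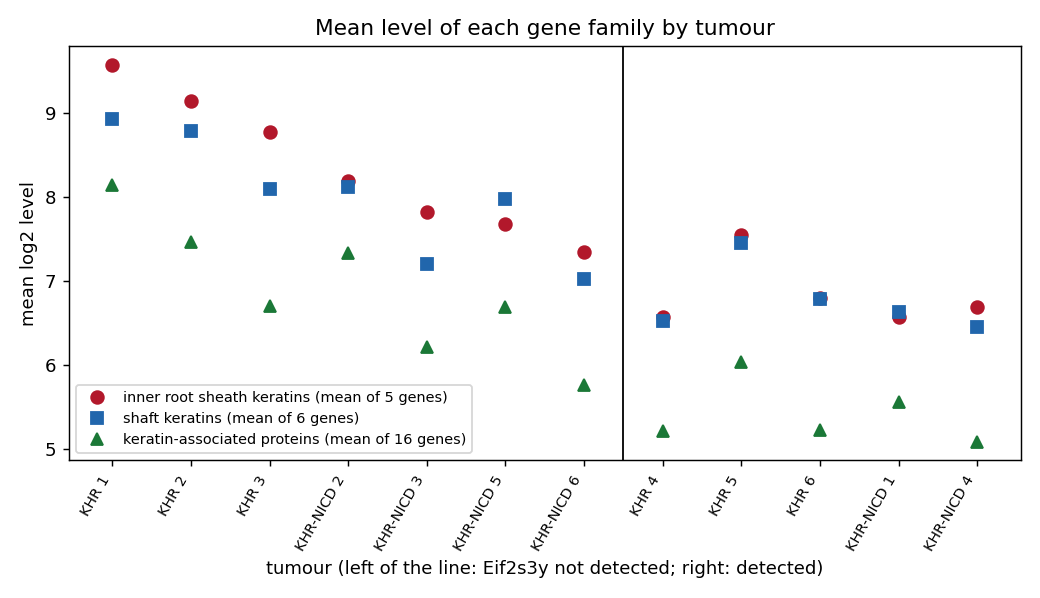
Mean log2 level per tumour of the inner root sheath keratins, shaft keratins and keratin-associated proteins that passed the detection filter, with the tumours with Eif2s3y on the right. The hair families follow one another across the tumours, and the 5 tumours with Eif2s3y lie low, with KHR 5 highest among them. KHR-NICD 6, without Eif2s3y, lies below KHR 5 in each family (7.35 against 7.55, 7.03 against 7.46 and 5.76 against 6.04).

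With Eif2s3y kept in the model, Tchhl1 and Krt73 were lower in KHR-NICD. Limma called these 2 of 28 members for tumour type, against 2.57% of all genes, with differences of -0.96 for Tchhl1 (standard error 0.20, adjusted p = 0.0339) and -1.12 for Krt73 (standard error 0.25, adjusted p = 0.0382). Next came Krt27, at -1.20 with an adjusted p of 0.0542, and Krt84, at -0.57 with 0.0666. At an unadjusted p under 0.05 and lower stood 15 of 28, against 10.2% of all genes. This model fits a single type difference to both Eif2s3y sets. Krt73 differed by -1.55 in the tumours without Eif2s3y and by -0.51 in those with it (interaction 1.04, limma adjusted p = 0.24). For Tchhl1 these differences were -0.85 and -1.12. With array weights and no Eif2s3y term, Krt73 differed by -0.07.

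**Figure D5:**
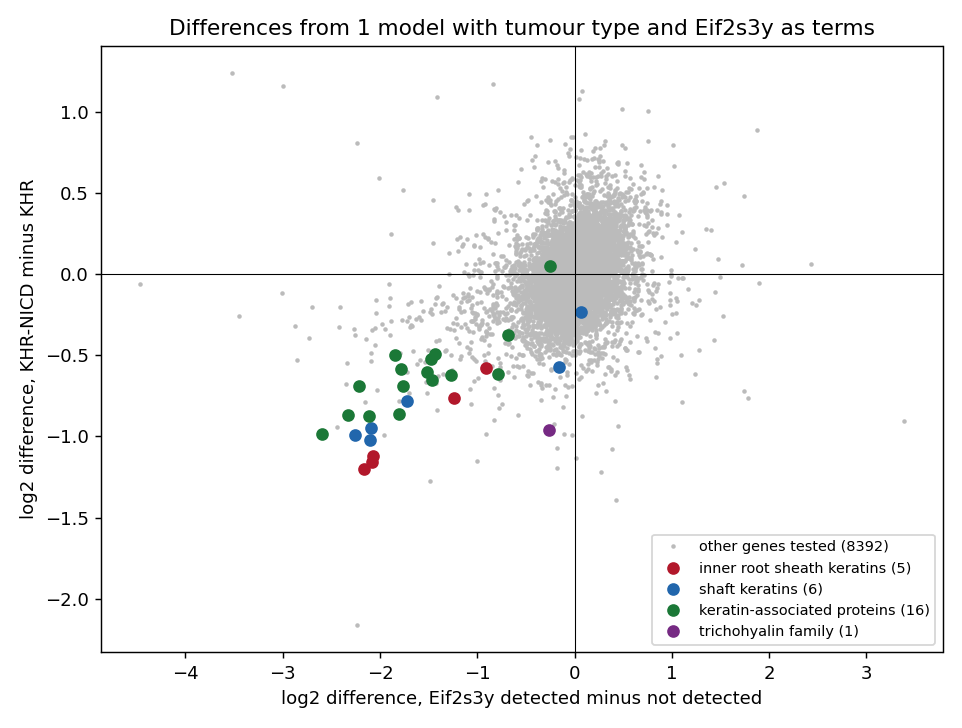
Difference by tumour type (KHR-NICD minus KHR) against difference by detection of Eif2s3y, both on the log2 scale and from one limma model, for the 28 members. Most members lie far down the Eif2s3y axis, while Tchhl1 and Krt84 lie near 0 on it and below 0 for tumour type.

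The same split was then read within each set. Eif2s3y was not detected in 3 KHR and 4 KHR-NICD tumours, and among these 7 the differences were negative for 28 of 28 members, against 48.1% of all genes, with a median of -1.06 against 0.01. Most members rose and fell together, so these signs are not 28 separate observations. The highest KHR-NICD tumour was lower than the lowest KHR tumour for 5 of 28, against 7.01% of all genes, and these 5 were the inner root sheath keratins that passed. Krt71 lay between 10.90 and 12.15 in the 3 KHR tumours and between 9.31 and 10.52 in the 4 KHR-NICD tumours, and Krt26 between 6.96 and 7.31 and between 5.39 and 6.13. This match was seen after the values were known, and limma called 0 of the members within these 7 tumours, where it called 1 of 8420 genes (0.0119%). In the same tumours muscle marker means were 8.98 to 10.28 in KHR and 7.74 to 9.58 in KHR-NICD, and hair follicle stem cell means 8.37 to 8.68 and 7.76 to 8.16.

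Among the 5 tumours with Eif2s3y, 3 KHR and 2 KHR-NICD, the differences were negative for 23 of 28, against 50.6% of all genes, with a median of -0.22 against -0.0049. As 7 of the 28 were detected in 0 or 1 of these tumours, many of those signs lie within the background. For the 9 members detected on all 12 arrays, 9 differences were negative, against 50.6% of the 7254 genes so detected, with a member median of -0.55. Both KHR-NICD tumours lay below all 3 KHR tumours for 4 of 28, against 22.7% of all genes: Krt73, Krt84, Tchhl1 and Krtap5-2. Of these Krtap5-2 was detected in 1 of the 5 tumours, so its order among them has no meaning. Tchhl1 lay between 8.07 and 8.68 in KHR and at 7.06 and 7.38 in KHR-NICD, and Krt84 between 8.29 and 8.61 and at 7.45 and 7.99. The difference between the sets was tested as an interaction of tumour type and Eif2s3y, and 0 of 28 members passed at an adjusted p of 0.05, against 0.285% of all genes. At an unadjusted p under 0.05 stood 8 of 28, against 17.9% of all genes. Krt26 came nearest, with an interaction of 1.27 (standard error 0.29) and a limma adjusted p of 0.0757. It was detected in 2 of the 5 tumours with Eif2s3y, so its difference in that set lies near the background.

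Regulators of the hair follicle and its non-keratin proteins were read from a list of 40 genes, all on the array. Of these 24 passed the filter and 11 were undetected on every array. Among the 16 that did not pass were Lef1, Foxn1 and Msx2, transcription factors of the hair matrix and cortex, Dsg4, a desmosomal cadherin of the shaft, and Padi3, an enzyme that modifies trichohyalin. For tumour type 0 of the 24 passed limma's adjusted test. At an unadjusted p under 0.05, Trps1 was 0.60 higher in KHR-NICD (limma adjusted p = 0.163), while Cux1, at -0.49, Padi1, at -0.42, and Tgm1, at -0.29, were lower. For the Eif2s3y term 7 of 24 were called lower and 4 higher, against 10.1% and 8.47% of all genes. Lower were Hoxc13, a direct activator of hair keratin genes, by 0.67 (standard error 0.21, limma adjusted p = 0.0394), Gata3, a factor of the inner root sheath, by 1.09, and S100a3, a calcium-binding protein of the cuticle, by 1.52. Crym, Selenbp1, Lrig1 and Sox9 were also lower, and Cux1, Tgm1, Tgm3 and Wnt10a higher. Of the 5 tumours with Eif2s3y, Hoxc13 was detected in 1 and Crym in 0, so the size of their differences rests on background values.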

How the data were processed

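Total RNA of 12 tumours was labelled with biotin and hybridised to Illumina MouseRef-8 v2 arrays. GenomeStudio and Partek are named in the submitters' processing notes, and the sources used here give no other steps. Per the file headers, the authors deposited for each array and probe an intensity averaged over beads and left unnormalized, a detection p-value, the number of beads and their error. A further deposited table holds processed intensity, used only as an alternative.

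Signals were background-corrected from the detection p-values and quantile-normalized to log2 values by the function neqc (limma 3.58.1, R 4.3.3, offset 16), computed from the deposited intensity. Probes with a detection p under 0.05 on at least 6 of 12 arrays were kept, with the probe of highest mean for each gene, which gave 8420 genes. KHR-NICD was set against KHR with lmFit and eBayes over all genes, with Benjamini-Hochberg adjustment at 0.05. A second model added detection of Eif2s3y. Symbols came from the platform annotation, and all 53 member probes matched a current gene.

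Members, gene lists and motifs were chosen with earlier results of these data known. Members named with values were the 12 with the highest mean and the 5 with the smallest p for tumour type, and the other members that passed were given by their difference. Members singled out in the other comparisons, and Eif2s3y and Xist, were named after their values were seen. Marker lists read beside the members were those of keratinocytes, oral mucosa, interfollicular epidermis, skeletal muscle, melanocytes and sebaceous gland. Others covered dermal papilla, hair follicle stem cells, fibroblasts, salivary gland and adipocytes. The lists were read by counts and means, and single markers were also given with their differences from the same fits. In 5 simulations of KHR-NICD minus KHR with 8420 genes, 200 genes were changed. Of the genes shifted by 0.5 in log2, 46.2% were recovered, and 89.8% of those shifted by 1. These shares are over genes in general, whose median standard error was 0.13, against 0.57 for the members. They do not show how often a member with such a shift would be called.

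The fits were repeated with the deposited processed values, with no background correction, other normalizations, filters and probe rules, a trended variance, array weights, a replicate block, Eif2s3y as a covariate or as a split, and leaving out each tumour. The filters for the Eif2s3y term were chosen after seeing the data.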

Additional observations from a re-analysis of the deposited data

How the results depend on the processing

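For tumour type 0 members were called under 10 of the 13 alternatives that kept all 12 tumours, within each Eif2s3y set, and under each of the 12 that left 1 tumour out. Median centring called 1 member (Tchhl1, limma adjusted p = 0.049), array weights called 1 (Tchhl1, -0.79, limma adjusted p = 0.0419) and Eif2s3y as a covariate 2. Genes called over the whole array numbered 17 as reported above, 28 without background correction, 54 with median centring, 31 with a trended and robust variance, 125 with array weights, 216 with the covariate, 1 in the tumours without Eif2s3y and 0 in those with it. Leaving out single tumours gave 1 to 24 genes called. The median member difference ran from -0.71 to -0.15 over those omissions and reversed to 0.10 with array weights, which gave KHR 1 a weight of 0.42. There the differences of Krt34 (0.15), Krt86 (0.011), Krt33a (0.10), Krtap13-1 (0.28), Krtap5-1 (0.31), Krtap19-9b (0.10) and Krtap1-4 (0.41) also turned positive, as did Krtap1-4 without KHR 1 (0.076). The cause was not tested. Members that passed the detection filter numbered 25 to 28 with 1 tumour left out, 31 with at least 3 arrays, 20 at a detection p under 0.01 and 9 with all 12 arrays. Members called for the Eif2s3y term numbered 20 to 23 with 1 tumour left out and under other normalizations, background corrections and models, 21 with no filter and 7 of the 9 detected on all 12 arrays, where fewer genes were tested.

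The deviations of same-numbered tumours correlated at 0.283 and 0.454 for numbers 3 and 4 and below 0 for the other 4 numbers (lowest -0.221), so the numbers were not taken to pair them. With the replicate block, 1 gene and 0 members were called and the median difference stayed at -0.48. A block for chip or slide was not run, since the files name none. The number of arrays and, for members near background, the weak signal limit what could be detected.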

Other observations

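Probes of the same gene did not always run alike. Of the 3 probes of Krt82, the one that passed the filter was detected on 8 arrays and ranged from 5.11 to 6.03 over the tumours. The other probes were detected on 3 and 1 arrays and were highest in KHR 1 to 3, at 5.74 to 5.99 and 5.00 to 5.80, and the second of them reached at most 4.92 elsewhere. The probes of Krt75 were detected on 2, 1 and 1 arrays and were highest in different tumours, KHR 5, KHR-NICD 1 and KHR 2. Krt35, which did not pass the filter, was at 6.62, 6.86 and 6.47 in KHR 1 to 3 and at 6.21 in KHR-NICD 2. It lay at 5.40 or below in the other 8 tumours.

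Among the marker lists, dermal papilla markers passed in 4 of 8 cases, with Sostdc1, a secreted inhibitor of BMP and Wnt signals, lower by 0.78 with Eif2s3y (limma adjusted p = 0.00135). The others did not pass: Crabp1 differed by 0.58 (limma adjusted p = 0.14), Wif1 by -0.29 and Alpl by -0.23. Adipocyte markers passed in 0 of 4 cases. Salivary gland markers passed in 1 of 5: Aqp5, a water channel, was 0.85 higher in KHR-NICD (limma adjusted p = 0.0737). Oral mucosa markers had mean log2 levels of 11.18 to 12.36 in KHR and of 11.04 to 12.07 in KHR-NICD. The means were 11.04 to 11.81 with Eif2s3y and 11.52 to 12.36 without. For that term Krt4 differed by -1.79 (limma adjusted p = 0.00676). The others did not pass: Krt76 was at -3.00 (limma adjusted p = 0.0799), Krt13 at -0.21, Krt6a at 0.31, Krt78 at 0.18, Krt16 at 0.11 and Sprr3 at 0.07. Notch1 had log2 levels of 9.24 to 9.76 in KHR and of 9.20 to 10.07 in KHR-NICD.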
